A study of Homo sapiens with 8 samples.

Results

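The mRNA of HT29 cells given CWP232228 was compared with that of HT29 cells given ICG-001, gene by gene across the transcriptome. Both are small molecules that the study names as reverse-turn peptidomimetics, and HT29 is an established human colorectal adenocarcinoma line known for a truncated APC gene and active Wnt signalling. The comparison took the 4 of 8 libraries whose titles name either compound, 2 with CWP232228 at 1.5 µM and 2 with ICG-001 at 10 µM. The labels give 48 h of treatment for replicate 1 of both compounds and 49 h for replicate 2 of both. The other 4 libraries are labelled 48 h, and whether 49 h is a true time or a slip in the labels could not be settled. The doses differ, so each difference is between the treatments as given, not between the compounds at 1 concentration. Of the other 4 libraries, 2 with YB-0158 at 0.3 µM entered the gene filter, the scaling and the estimate of the spread between replicates, not the contrast. The 2 with the DMSO vehicle at 0.1% entered no test but an alternative fit on all 8 libraries, and are given as levels for orientation. All 8 libraries come from this 1 cell line, and the labels do not say that replicates were separate cultures, so p-values measure how far these libraries lie apart, which may be a technical spread.

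ICG-001 binds the transcriptional coactivator CREBBP, which β-catenin recruits to Wnt target genes, and later work added the RNA-binding protein KHDRBS1 as a target. CWP232228 is described as an inhibitor of β-catenin-dependent transcription. A cell's transcript levels also report on its growth state through a few well-known programmes. E2F factors drive genes of DNA replication, the MMB and FOXM1 factors drive genes of mitosis, ATF4 drives genes of amino acid supply when translation initiation factor eIF2α is phosphorylated, and SREBF2 drives cholesterol synthesis when membrane sterol is low.

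The CWP232228 libraries held 31022125 and 30618896 estimated reads and the ICG-001 libraries 55020460 and 43395915. The floor set by 3 counts was therefore 0.098 counts scaled to library size (CPM) in both CWP232228 libraries, against 0.0556 and 0.0706 CPM in the ICG-001 libraries. On the log2 scale, replicate 2 minus replicate 1 had an SD over genes of 0.173 for CWP232228, 0.164 for ICG-001 and 0.323 for DMSO, over 11392 genes. That difference moved with gene GC content in each group. Spearman rho across genes was -0.54 for CWP232228, -0.71 for ICG-001 and 0.58 for DMSO, where genes are not independent replicates. All 14 listed colorectal epithelium markers were detected and tested, with CDX1 lowest at 0.871 to 1.05 CPM over the 4 libraries. In the test given below, 2 of the 14 were called higher with CWP232228 and 6 lower, 57.1% beside 18.3% of all genes. With all 8 libraries these became 0 higher and 2 lower. Fibroblast markers, 9 of 11 of them under 1 CPM in all 4 libraries, summed to 6.13 and 6.69 CPM with CWP232228, against 4.67 and 5.06 CPM with ICG-001, and COL1A2 and PDGFRA were at 0. Leukocyte markers other than LYZ summed to 9.48 and 8.16 CPM with CWP232228, against 6.50 and 6.27 CPM with ICG-001, with CD3D, CD3E, MS4A1 and NKG7 at 0. LYZ alone stood at 2496 and 2643 CPM with CWP232228, against 2509 and 2694 CPM with ICG-001. Endothelial markers summed to 112.6 and 109.0 CPM with CWP232228, against 131.6 and 118.3 CPM with ICG-001, nearly all from ESAM and ENG, with CDH5 and CLDN5 at 0.

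Relative to ICG-001, cells given CWP232228 had more mRNA of genes for DNA replication, mitosis, DNA repair and cholesterol synthesis, and less mRNA of genes of the ATF4 stress response, of several tRNA synthetases and of NRF2 targets. Of 16471 genes tested, 3018 (18.3%) differed at an adjusted p under 0.05 in edgeR's quasi-likelihood test with Benjamini-Hochberg adjustment. They divided into 1588 (9.64%) higher and 1430 (8.68%) lower with CWP232228. Counts of called members in each gene list below are to be read beside these shares. Most differences were small: the median log2 fold change of all genes tested was 0.0056, with quartiles at -0.17 and 0.19, and 226 genes (1.37%) were called with a log2 fold change of at least 1 in size, 104 higher and 122 lower. Of these 226 genes, 160 averaged under 2 CPM, where few reads carry the estimate. With 2 libraries a side, 58.8% of all genes tested had libraries that did not overlap, so absence of overlap alone sets few genes apart. The count of 3018 calls was 1602 without CWP232228 replicate 2 and 1317 without ICG-001 replicate 1, the count of 226 large differences was 133 without ICG-001 replicate 1, and 1060 genes were called whichever of the 4 libraries was left out. Correcting each gene for Salmon's effective length in each library left 843 calls, 793 of them among the 3018.

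**Figure D1:**
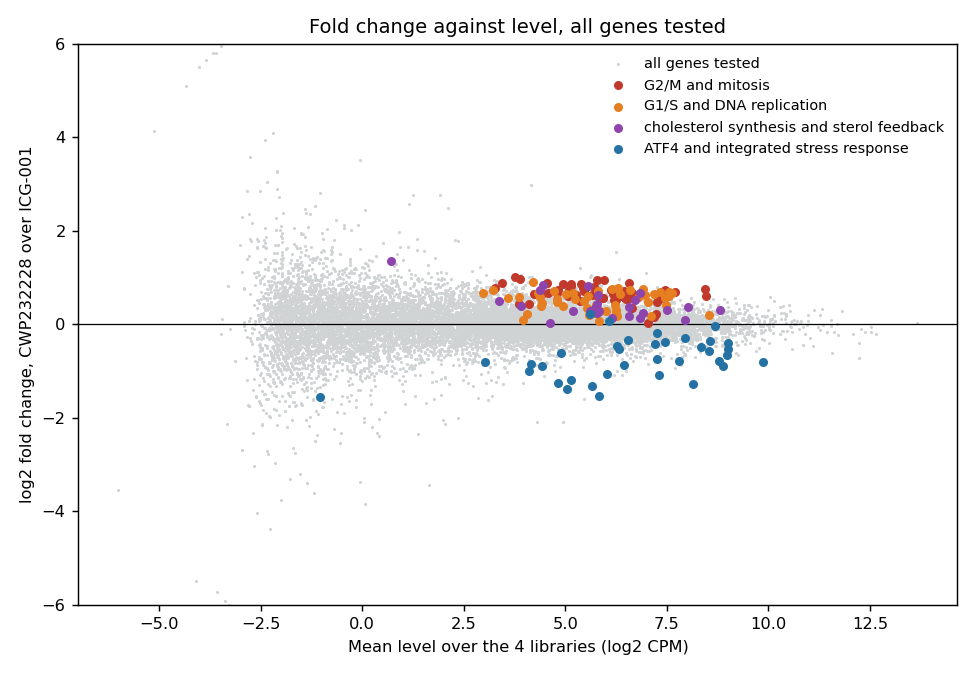
Each point is a gene, with its mean level over the 4 libraries (log2 CPM) on the horizontal axis and its log2 fold change of CWP232228 over ICG-001 on the vertical axis. Mitosis and replication genes lie above 0 at every level, ATF4 list genes mostly below it, and 35 genes beyond a log2 fold change of 6 in size are outside the plot.

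Among the rises of well-expressed genes, CSPG4, a cell surface chondroitin sulfate proteoglycan (GRCh38, chr15:75674322-75712848), had 113 and 112 CPM with CWP232228, against 38 and 38.7 CPM with ICG-001 and 249 and 281 CPM with DMSO. Its log2 fold change was 1.55 (SE 0.055, edgeR adjusted p = 2.46e-06), with replicates that differed by little in either group. All 4 libraries were below both DMSO libraries. CA9, a cell surface carbonic anhydrase best known as a hypoxia-induced gene, had 61.4 and 53.2 CPM with CWP232228 and 23.8 and 25.8 CPM with ICG-001. Its log2 fold change was 1.21 (SE 0.089), and both DMSO libraries were higher, at 137 and 209 CPM. Of 21 tested hypoxia-responsive genes, 3 were called higher and 4 lower, with a median of -0.10. That is 33.3% called, beside 18.3% of all genes. Over the 12 largest rises, the mean level with CWP232228 was below DMSO for 8 and above it for 4.

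CLDN2, a claudin that forms cation pores in leaky epithelia, stood at 176 and 168 CPM with CWP232228, against 79 and 81.4 CPM with ICG-001, a log2 fold change of 1.10 (SE 0.054, edgeR adjusted p = 7.99e-06). Its DMSO libraries, at 178 and 202 CPM, overlapped neither ICG-001 library. EMP2, a tetraspan membrane protein, had 105 and 107 CPM with CWP232228, against 52 and 55.2 CPM with ICG-001. REG4, a secreted lectin of enteroendocrine and goblet-type cells, had 23.9 and 22.5 CPM with CWP232228, against 12.1 and 10.8 CPM with ICG-001. The largest rises named by rule also held genes of chromosome segregation. SGO2, a protector of centromeric cohesion, had 17.3 and 18.9 CPM with CWP232228, against 7.95 and 10 CPM with ICG-001, and CENPH, a kinetochore subunit, had 23.4 and 25.3 CPM with CWP232228, against 10.9 and 13.4 CPM with ICG-001. CTSV, a lysosomal cysteine protease, ADH6, an alcohol dehydrogenase, and MNS1, a protein of motile cilia and flagella, rose by 1.22, 1.14 and 1.05 on the log2 scale. LCOR, a nuclear receptor corepressor, was the least secure of the rises named here. It had 64.5 and 69.6 CPM with CWP232228, against 33.4 and 31.5 CPM with ICG-001, with a log2 fold change of 1.05 (SE 0.23) and an adjusted p of 0.0479 in edgeR. The call on LCOR was lost when any 1 of the 4 libraries was left out, with adjusted p between 0.166 and 0.243, and its summed reads were 65.6% of the mean in the authors' deposited table. The calls on ADH6 and CENPH were lost under the effective length correction, with adjusted p of 0.0723 and 0.11.

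Among the falls, UNC5B, a netrin receptor with a death domain, changed most (GRCh38, chr10:71212570-71302864). UNC5B stood at 8.03 and 7.02 CPM with CWP232228, against 33.3 and 31.1 CPM with ICG-001, and at 0.632 and 0.931 CPM with DMSO. The log2 fold change was -2.10 (SE 0.09, 95% interval -2.30 to -1.90, edgeR adjusted p = 3.92e-06). CWP232228 lay between the other groups, with both DMSO libraries below it. That the compounds did not overlap was required by the naming rule. The trypsinogen genes PRSS2 and PRSS1 were also among these falls, with log2 fold changes of -2.08 (SE 0.11) and -1.60 (SE 0.067). PRSS2 had 13.3 and 10.1 CPM with CWP232228, against 51.6 and 47.7 CPM with ICG-001, and PRSS1 had 22.7 and 20.8 CPM with CWP232228, against 66.2 and 65.3 CPM with ICG-001. These genes are near-identical copies on chromosome 7, so the division of reads between them is uncertain.

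The long noncoding RNA LINC01133 had 4.36 and 4.09 CPM with CWP232228, against 12.5 and 13.5 CPM with ICG-001, a log2 fold change of -1.62 (SE 0.11), and its reads came to 60.0% of its mean in the authors' deposited table. In the DMSO libraries it was listed at 0.0351 and 0.107 CPM, which is 1 count and 3 counts. IL6R, the interleukin-6 receptor chain, had 6.19 and 6.72 CPM with CWP232228, against 15.2 and 16.1 CPM with ICG-001. PADI2, a peptidylarginine deiminase, had 8.95 and 9.5 CPM with CWP232228, against 22.9 and 21 CPM with ICG-001. Both were higher in all 4 of these libraries than in DMSO, while the separation of the 2 compounds was required by the naming rule. ITPKA, a kinase of inositol trisphosphate, and MORN4 fell by 1.32 and 1.25 on the log2 scale. The 4 remaining genes of the 12 falls were CHAC1, SLC6A9, NIBAN1 and TRIB3, all of them genes of the ATF4 response, which are described with that list. All 12 falls kept their call in every alternative fit run.

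**Figure D2:**
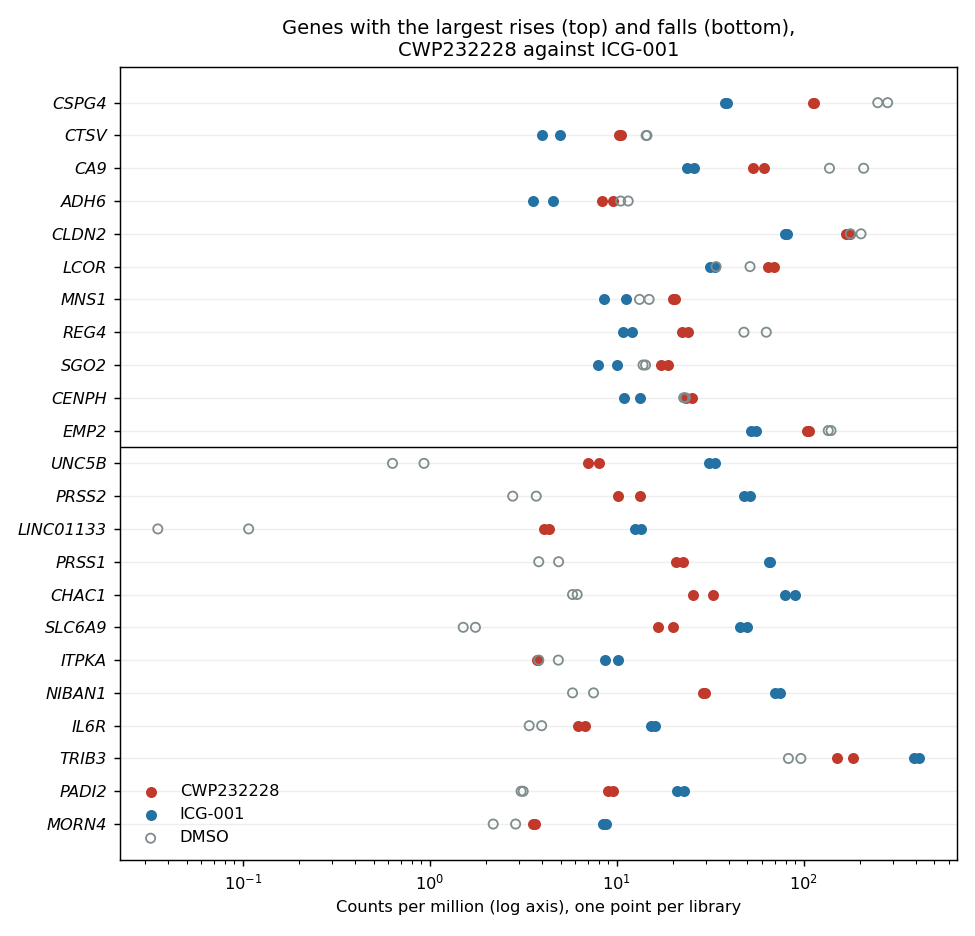
Levels of genes that met the naming rule, in CPM on a log axis with 1 point for each library. The upper block holds 11 of those with the largest rises, the lower block the 12 with the largest falls. CWP232228 points are red, ICG-001 points blue and DMSO points open grey; the red and blue points of a gene do not overlap in any row, as the choice of the genes requires.

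Cell cycle genes showed the most uniform difference. Of 57 tested genes of G2/M and mitosis, 55 were called higher with CWP232228 and none lower, against 9.64% of all genes called higher, and their median log2 fold change was 0.64 beside 0.0056 for all genes tested. Of 50 genes of G1/S and DNA replication, 44 were called higher and none lower, with a median of 0.56. Of 26 DNA damage repair genes, 18 were called higher and none lower, with a median of 0.50. Summed over the list, the mitosis genes made up 5333 and 5400.0 CPM with CWP232228, against 3452 and 3622 CPM with ICG-001 and 5279 and 4958 CPM with DMSO. Under the effective length correction the replication genes called higher numbered 20 and the repair genes 9.

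BUB1, a kinase of the spindle checkpoint, had 73.5 and 71.6 CPM with CWP232228, against 35.7 and 39.4 CPM with ICG-001, with a log2 fold change of 0.95 (SE 0.067, edgeR adjusted p = 6.91e-05). CENPF, which couples kinetochores to microtubules, had 215 and 225 CPM with CWP232228, against 130.2 and 135 CPM with ICG-001, and a log2 fold change of 0.73 (SE 0.053). NUSAP1, a spindle microtubule binder, had 119 and 128 CPM with CWP232228, against 63.4 and 70.1 CPM with ICG-001, and a log2 fold change of 0.89 (SE 0.069). In each, the higher of the ICG-001 libraries stayed well under the lower CWP232228 library. MKI67, the proliferation antigen Ki-67, had 429.8 and 422 CPM with CWP232228, against 289 and 268 CPM with ICG-001 and 285 and 248 CPM with DMSO, a log2 fold change of 0.61 between the compounds (SE 0.061, edgeR adjusted p = 0.000246). BIRC5, or survivin, a chromosomal passenger protein and inhibitor of apoptosis, had 72.6 and 72.5 CPM with CWP232228, against 47.3 and 50.7 CPM with ICG-001 and 106 and 109.7 CPM with DMSO, a log2 fold change of 0.57 (SE 0.068). MKI67 with CWP232228 was thus above both other groups, while BIRC5 with CWP232228 lay between them. The call on BIRC5 was lost under the effective length correction, with an adjusted p of 0.0567.

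Among replication genes, LIG1, the ligase that joins Okazaki fragments, had 98.6 and 100.3 CPM with CWP232228, against 58.6 and 57.5 CPM with ICG-001, and a log2 fold change of 0.78 (SE 0.055, edgeR adjusted p = 7.15e-05). TYMS, which makes thymidylate, had 119 and 122 CPM with CWP232228, against 70.6 and 74 CPM with ICG-001, and a log2 fold change of 0.74 (SE 0.056). MCM3, a subunit of the replicative helicase, had 179.8 and 177 CPM with CWP232228, against 112 and 115 CPM with ICG-001, and a log2 fold change of 0.65 (SE 0.053). Repair genes rose alongside. RAD54L, a motor of homologous recombination, rose by 0.73 (SE 0.082), FANCI, of the Fanconi anaemia pathway, by 0.52 (SE 0.064), and PARP1, the DNA break sensor, by 0.49 (SE 0.052), each on the log2 scale. Of 19 tested G1 cyclins, cyclin-dependent kinases and their inhibitors, 11 were called higher and 1 lower, a list that shares CCNE1, CCNE2 and E2F1 with the replication genes. CCNE1, or cyclin E1, had 25.2 and 24.8 CPM with CWP232228, against 16.2 and 17.2 CPM with ICG-001, and CDK2, its kinase partner, had 93.9 and 90 CPM with CWP232228, against 68.4 and 69.8 CPM with ICG-001. The 1 member that fell was CDKN2B, an inhibitor of CDK4 and CDK6, with 10.4 and 8.76 CPM with CWP232228, against 16.2 and 16 CPM with ICG-001, a log2 fold change of -0.75 (SE 0.10). The 11 became 6, 4 and 7 without CWP232228 replicate 2, ICG-001 replicate 1 and ICG-001 replicate 2, 3 with all 8 libraries in the model and 1 under the effective length correction. The calls on RAD54L, FANCI, CDKN2B, CDK2 and CCNE1 were lost under the effective length correction.

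Promoters of these lists were read for short sequence elements, as a description. The CHR element (TTTGAA or TTCGAA, either strand), a site of the MMB and DREAM complexes in mitotic genes, was in 34 of the 48 G2/M promoters that RefSeq's table holds (70.8%), against 4539 of all 27305 promoters (16.6%). The windows run from 250 bases before to 50 bases after a gene's start on GRCh38.p14. An E2F element (TTTGGCGC or TTTCGCGC, either strand) was in 11 of 42 promoters of replication genes (26.2%), against 322 of all 27305 (1.18%). The CHR and E2F letters do not contain each other, and a match is a run of letters, not a shown binding site. The full promoter of BUB1, the mitosis gene with the smallest p, is shown 5′ to 3′ with its CHR letters in capitals (chr2:110678014-110678313 on the reverse strand), followed by that of MCM3, the replication gene of smallest p that holds an E2F element, in capitals (chr6:52284693-52284992 on the reverse strand). Stretches of 40 bases around the match follow for further called genes of each list that hold the element, to compare their settings. Genes that lack it, such as most replication genes, were skipped.

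BUB1: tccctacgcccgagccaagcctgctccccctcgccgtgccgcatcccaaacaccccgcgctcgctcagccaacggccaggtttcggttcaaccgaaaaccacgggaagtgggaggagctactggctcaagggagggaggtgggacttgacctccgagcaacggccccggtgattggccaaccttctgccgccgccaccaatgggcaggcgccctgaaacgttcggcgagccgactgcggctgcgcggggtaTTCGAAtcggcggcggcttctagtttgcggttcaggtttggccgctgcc

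MCM3: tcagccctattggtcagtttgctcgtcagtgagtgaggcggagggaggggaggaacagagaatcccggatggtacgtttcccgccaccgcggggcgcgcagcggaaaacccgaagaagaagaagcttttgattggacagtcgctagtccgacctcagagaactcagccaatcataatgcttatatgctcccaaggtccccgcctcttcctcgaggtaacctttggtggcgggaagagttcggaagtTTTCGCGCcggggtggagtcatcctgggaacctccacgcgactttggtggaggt

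CENPF (chr1:214603205-214603244): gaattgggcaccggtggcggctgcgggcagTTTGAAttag

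NUSAP1 (chr15:41332877-41332916): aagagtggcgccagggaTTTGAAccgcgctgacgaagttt

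MCM2 (chr3:127598397-127598436): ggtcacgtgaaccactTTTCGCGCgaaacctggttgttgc

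POLE (chr12:132687337-132687376): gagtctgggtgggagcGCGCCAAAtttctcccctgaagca

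The CHR letters of BUB1 are the palindrome TTCGAA and those of CENPF and NUSAP1 the form TTTGAA. POLE carries the E2F letters on the opposite strand. MCM2, a helicase subunit like MCM3, had 229.9 and 223 CPM with CWP232228, against 149.5 and 149 CPM with ICG-001. POLE, the leading-strand polymerase, had 151 and 154 CPM with CWP232228, against 106 and 112 CPM with ICG-001. The call on POLE was lost with all 8 libraries and under the effective length correction, with edgeR adjusted p of 0.0597 and 0.109.

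**Figure D3:**
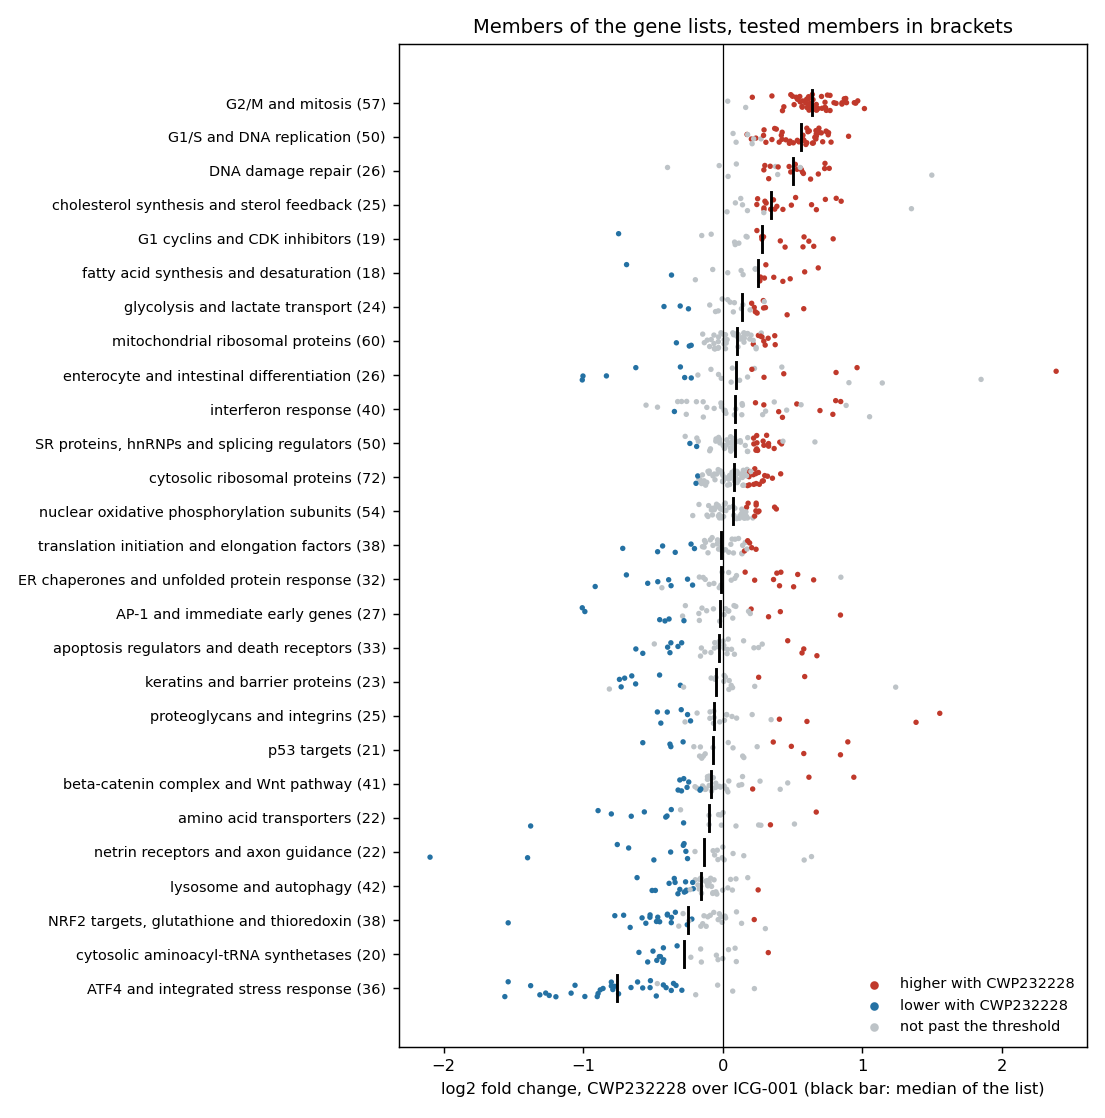
Log2 fold changes of CWP232228 over ICG-001 for the tested members of the lists with at least 9 called members, with 1 point for each gene and the median as a black bar. Mitosis genes have the highest median (0.64) and ATF4 genes the lowest (-0.76), and most other lists hold members on both sides of 0.

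Genes that ATF4 and the integrated stress response control ran the other way. Of 36 tested members, 31 were called lower with CWP232228 and none higher, against 8.68% of all genes called lower, and the median log2 fold change was -0.76. Their summed level was 5943 and 5499 CPM with CWP232228, against 8834 and 8665 CPM with ICG-001 and 3282 and 3395 CPM with DMSO. ATF4 mRNA itself, whose product is regulated largely at translation, had 410.5 and 398 CPM with CWP232228, against 419 and 411 CPM with ICG-001, a log2 difference of -0.037 (95% interval -0.15 to 0.08, edgeR adjusted p = 0.678). It did not pass the test.

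DDIT3, the transcription factor CHOP, had 17.3 and 16.2 CPM with CWP232228, against 41.2 and 38.1 CPM with ICG-001 and 9.51 and 14 CPM with DMSO, and a log2 fold change of -1.24 (SE 0.079, edgeR adjusted p = 4.65e-05). TRIB3, a pseudokinase that CHOP and ATF4 induce, had 182 and 151 CPM with CWP232228, against 415 and 388 CPM with ICG-001 and 82.8 and 96.5 CPM with DMSO, and a log2 fold change of -1.27 (SE 0.084). NIBAN1, a stress-induced cytoplasmic protein, had 29.6 and 28.8 CPM with CWP232228, against 70.5 and 74.3 CPM with ICG-001 and 7.51 and 5.8 CPM with DMSO. In each of these 3 genes CWP232228 lay between the other groups without overlap, which the naming rule required between the compounds for TRIB3 and NIBAN1. CHAC1, which degrades glutathione, had 32.8 and 25.5 CPM with CWP232228, against 89.4 and 79.7 CPM with ICG-001 and 6.14 and 5.8 CPM with DMSO, and a log2 fold change of -1.54 (SE 0.12, edgeR adjusted p = 0.000229), with the CWP232228 replicates further apart than the ICG-001 ones in proportion.

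Amino acid supply genes were part of this list. SLC6A9, the glycine transporter GLYT1, had 20 and 16.7 CPM with CWP232228, against 49.6 and 45.7 CPM with ICG-001 and 1.51 and 1.75 CPM with DMSO, a log2 fold change of -1.38 (SE 0.091). SLC3A2, the heavy chain shared by several amino acid exchangers, had 343 and 319.9 CPM with CWP232228, against 638 and 594 CPM with ICG-001, a log2 fold change of -0.89 (SE 0.058). PSAT1, of serine synthesis, had 325 and 328 CPM with CWP232228, against 544 and 574 CPM with ICG-001 and 88.4 and 76.8 CPM with DMSO, a log2 fold change of -0.78 (SE 0.054, edgeR adjusted p = 6.91e-05). The difference was smaller in ASNS, asparagine synthetase, with 347 and 321 CPM with CWP232228, against 406 and 447 CPM with ICG-001 and 67 and 69.7 CPM with DMSO, a log2 fold change of -0.35 (SE 0.073, edgeR adjusted p = 0.0104). The call on ASNS was lost without CWP232228 replicate 2 and without ICG-001 replicate 2, with adjusted p of 0.0754 and 0.0631. Both compounds thus stood well above DMSO in ASNS and PSAT1 levels, at different heights. Of 22 amino acid transporters tested, 9 were called lower and 2 higher, and SLC3A2, SLC6A9, SLC7A11 and SLC7A5 among them also belong to the ATF4 list. The 2 that rose, named after their values were seen, were the taurine transporter SLC6A6, at 71.7 and 70.5 CPM with CWP232228, against 45.4 and 43.9 CPM with ICG-001, and SLC7A7. The call on SLC7A7 was lost whichever of the 4 libraries was left out, with adjusted p between 0.0596 and 0.138, and that on SLC6A6 was lost under the effective length correction, with an adjusted p of 0.467.

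The element that ATF4 binds with CEBP partners, read as TGATGNAA on either strand, was in 6 of 30 promoters of this list (20%), against 1003 of all 27305 (3.67%). All 6 of those genes were called lower with CWP232228, but so were 25 of the 30 members with a promoter, so this sets them little apart. The promoter of SLC3A2, the one of smallest p, holds it on the opposite strand near the window's end (chr11:62881449-62881748 on the forward strand), and ATF3 and CHAC1 follow with 40 bases around the match, whose letters are in capitals.

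SLC3A2: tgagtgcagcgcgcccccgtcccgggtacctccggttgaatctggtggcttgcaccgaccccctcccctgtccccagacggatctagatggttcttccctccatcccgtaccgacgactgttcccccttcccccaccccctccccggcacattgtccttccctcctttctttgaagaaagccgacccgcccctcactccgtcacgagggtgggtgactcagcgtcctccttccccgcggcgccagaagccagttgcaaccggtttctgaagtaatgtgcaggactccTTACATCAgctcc

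ATF3 (chr1:212565200-212565239): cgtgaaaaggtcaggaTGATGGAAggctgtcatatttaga

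CHAC1 (chr15:40953246-40953285): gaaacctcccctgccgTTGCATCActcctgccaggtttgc

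ATF3, an early stress transcription factor, had 11.4 and 11.8 CPM with CWP232228, against 24.2 and 21.6 CPM with ICG-001, a log2 fold change of -0.99 (SE 0.089, edgeR adjusted p = 0.000175).

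Cytosolic aminoacyl-tRNA synthetases, which load amino acids onto tRNAs, followed the same direction: 10 of 20 were called lower and 1 higher, with a median log2 fold change of -0.28. WARS1 (tryptophan) had 212 and 203 CPM with CWP232228, against 301 and 302 CPM with ICG-001, a log2 fold change of -0.54 (SE 0.05, edgeR adjusted p = 0.000189). NARS1 (asparagine) had 239 and 248 CPM with CWP232228, against 330.3 and 346 CPM with ICG-001, and MARS1 (methionine) had 321 and 298 CPM with CWP232228, against 446 and 429.5 CPM with ICG-001. The exception was QARS1 (glutamine), named after its value was seen, with 197 and 182 CPM with CWP232228, against 152 and 151 CPM with ICG-001, a log2 fold change of 0.33 (SE 0.056). The call on QARS1 was lost with all 8 libraries and under the effective length correction, with edgeR adjusted p of 0.0662 and 0.125. The ER arm of the stress response did not move as a block. Of 32 tested ER chaperone and unfolded protein response genes, 9 were called higher and 8 lower, with a median of -0.013, and the 9 became 5 without CWP232228 replicate 1. With all 8 libraries the counts were 5 higher and 4 lower, and under the effective length correction 4 higher and 4 lower. As examples chosen after their values were seen, CALR and ERN1 went opposite ways. The chaperone CALR rose by 0.54 on the log2 scale (SE 0.048). The sensor ERN1, or IRE1, had 30.7 and 29.5 CPM with CWP232228, against 57.8 and 55.6 CPM with ICG-001. Its log2 fold change was -0.91 (SE 0.062). The call on ERN1 was lost under the effective length correction, at -0.57 with an edgeR adjusted p of 0.163.

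NRF2 targets and genes of glutathione and thioredoxin metabolism fell in part: 18 of 38 tested were called lower and 1 higher, with a median of -0.25. Of these, CHAC1, SLC7A11 and TXNRD1 are also in the ATF4 list. FTH1, the ferritin heavy chain, had 3665 and 3654 CPM with CWP232228, against 6109 and 5867 CPM with ICG-001 and 3261 and 4085 CPM with DMSO, a log2 fold change of -0.71 (SE 0.047, edgeR adjusted p = 5.37e-05). FTH1 has processed pseudogenes that can share its reads. SRXN1, which repairs oxidised peroxiredoxins, had 86.7 and 85 CPM with CWP232228, against 125 and 131 CPM with ICG-001, a log2 fold change of -0.58 (SE 0.054). The CWP232228 libraries of both genes were close to the DMSO range and below both ICG-001 libraries. Of 42 lysosome and autophagy genes, 14 were called lower and 1 higher, with a median of -0.16. SQSTM1, the autophagy receptor p62, chosen after its value was seen, had 476 and 448 CPM with CWP232228, against 733 and 682 CPM with ICG-001. The lysosome and autophagy genes called lower numbered 5 without CWP232228 replicate 2 and with all 8 libraries, and 4 without ICG-001 replicate 1 and under the effective length correction.

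Genes of cholesterol synthesis and sterol feedback were higher with CWP232228 in 18 of 25 tested members, with none called lower and a median log2 fold change of 0.34. FDPS, which makes farnesyl pyrophosphate, had 122 and 126 CPM with CWP232228, against 87.7 and 84.8 CPM with ICG-001 and 217 and 256 CPM with DMSO, a log2 fold change of 0.52 (SE 0.052, edgeR adjusted p = 0.000259). INSIG1, the ER anchor that holds back SREBP processing, had 56.5 and 64.1 CPM with CWP232228, against 32.6 and 36 CPM with ICG-001 and 111 and 101 CPM with DMSO, a log2 fold change of 0.81 (SE 0.092). HMGCS1, the cytosolic HMG-CoA synthase at the start of the pathway, had 135 and 145 CPM with CWP232228, against 83.4 and 92.6 CPM with ICG-001 and 146 and 116 CPM with DMSO, a log2 fold change of 0.67 (SE 0.082). FDPS and INSIG1 with CWP232228 lay between the other groups, while HMGCS1 lay inside the range of the DMSO libraries. A sterol element, read as TCACNCCAC on either strand, was in the promoter of 1 of 18 members, SREBF2, which was not called. That share was 5.56%, against 313 of all 27305 promoters (1.15%). The 18 calls became 10 with all 8 libraries in the model and 10 under the effective length correction.

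Of 18 tested genes of fatty acid synthesis and desaturation, 9 were called higher and 2 lower, with a median of 0.25. SCD, the main desaturase of saturated fatty acids, had 1281 and 1255 CPM with CWP232228, against 809 and 879 CPM with ICG-001 and 1943 and 1689 CPM with DMSO, a log2 fold change of 0.59 (SE 0.055, edgeR adjusted p = 0.000197). ACSL1, which activates long-chain fatty acids, had 42.4 and 46.8 CPM with CWP232228, against 31.5 and 32.3 CPM with ICG-001. FADS3, of the fatty acid desaturase family, went the other way, with 33.9 and 31.2 CPM with CWP232228, against 55.9 and 49.1 CPM with ICG-001, a log2 fold change of -0.69 (SE 0.08). The other member called lower was ME1, a malic enzyme that supplies NADPH. Of 10 genes of cholesterol efflux and LXR targets, 4 were called higher and none lower: SCD, SREBF1, ABCA1, the cholesterol exporter, and NR1H3, the receptor LXRα. ABCA1 had 6.62 and 6.43 CPM with CWP232228, against 3.43 and 3.93 CPM with ICG-001, and NR1H3 had 54.3 and 53.4 CPM with CWP232228, against 46 and 42.1 CPM with ICG-001. The 4 became 2, with 1 called lower, without CWP232228 replicate 1 and without ICG-001 replicate 2, and 1 with all 8 libraries, where ABCA1 had an adjusted p of 0.111. NR1H3 lost its call in 3 of the 4 fits that left out a library, with adjusted p of 0.0645, 0.0567 and 0.0784 without CWP232228 replicate 1, CWP232228 replicate 2 and ICG-001 replicate 2. The fatty acid genes called higher numbered 5 without ICG-001 replicate 2, 4 with all 8 libraries and 2 under the effective length correction, and the call on ACSL1 was lost under the effective length correction, with an adjusted p of 0.903.

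Median differences of energy and translation genes were small. Of 54 nuclear genes of oxidative phosphorylation, 10 were called higher and none lower, and of 72 cytosolic ribosomal protein genes 18 were called higher and 2 lower, with a median of 0.08 in both lists. In oxidative phosphorylation 18.5% of the genes were thus called, beside 18.3% of all genes tested, and in ribosomal proteins 27.8%. Ribosomal protein genes have many pseudogenes, so single members are uncertain. Of 13 mitochondrially encoded mRNAs, 6 were called lower and none higher, with a median of -0.18. That is 46%, beside 8.68% of all genes called lower. Of 24 glycolysis genes, 9 were called higher and 3 lower, with a median of 0.14. That is 50% called in all, beside 18.3% of all genes. With all 8 libraries in the model the genes called numbered 1, 1, 0 and 1 for oxidative phosphorylation higher, ribosomal proteins higher, mitochondrial mRNAs lower and glycolysis higher. Under the effective length correction they numbered 2, 5, 3 and 1 in the same order. These counts also depended on single libraries. Without ICG-001 replicate 1 they were 2 for oxidative phosphorylation, 6 for ribosomal proteins, 2 for mitochondrial mRNAs and 4 for the glycolysis genes called higher. Without CWP232228 replicate 2 they were 4 for oxidative phosphorylation, 6 for ribosomal proteins and 2 for mitochondrial mRNAs. Without CWP232228 replicate 1 the ribosomal protein genes called higher numbered 11, and without ICG-001 replicate 2 those of oxidative phosphorylation numbered 4 and those of glycolysis 5.

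Genes for the known target proteins were not called in the 6-library model. KHDRBS1 had 233 and 246 CPM with CWP232228, against 208 and 222 CPM with ICG-001, a log2 difference of 0.15 (95% interval 0.026 to 0.28, edgeR adjusted p = 0.0926). CREBBP had 98.5 and 90.9 CPM with CWP232228, against 117 and 105 CPM with ICG-001, a log2 difference of -0.23 (95% interval -0.40 to -0.059, edgeR adjusted p = 0.0646). For EP300, its close relative, and CTNNB1, which encodes β-catenin, the intervals were -0.20 to 0.12 and -0.16 to 0.06. None of the 4 passed the test, which does not show that they were alike. CREBBP was called lower in 6 of the 14 alternatives, with adjusted p from 0.00218 to 0.429 over all of them. These included DESeq2, at 0.0331, and the fit without ICG-001 replicate 2, at 0.0359. KHDRBS1 was called higher in 3 of the 14, with adjusted p from 0.00525 to 0.396. Of 20 tested genes of CREBBP, EP300 and related coactivators, 1 was called, SMARCA4, a chromatin remodelling ATPase, with a log2 fold change of 0.20 (SE 0.053), a share of 5% beside 18.3% of all genes. The call on SMARCA4 was lost whichever of the 4 libraries was left out, with adjusted p between 0.0604 and 0.107.

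Of 27 tested Wnt/β-catenin target genes, 4 were called higher (DKK1, BIRC5, SP5 and ASCL2) and 2 lower (AXIN2 and NKD2), with a median of 0.07; 22.2% is set beside 18.3% of all genes. DKK1, a secreted Wnt antagonist, had 71.1 and 74.9 CPM with CWP232228, against 39 and 41.4 CPM with ICG-001 and 59.8 and 51.8 CPM with DMSO, a log2 fold change of 0.86 (SE 0.063). AXIN2, the feedback scaffold, had 92.3 and 86.6 CPM with CWP232228, against 108 and 106 CPM with ICG-001 and 65.8 and 58.4 CPM with DMSO, a log2 fold change of -0.25 (SE 0.055). DKK1 kept its call in all 14 alternatives. The call on AXIN2 was lost without CWP232228 replicate 2, without ICG-001 replicate 1 and with all 8 libraries, with adjusted p of 0.0789, 0.0676 and 0.0946, while its log2 fold change stayed between -0.42 and -0.21 over the alternatives. The calls on SP5 and ASCL2 were lost whichever of the 4 libraries was left out, so that 2 targets were called higher in each of those fits. None was called lower without CWP232228 replicate 2 or without ICG-001 replicate 1. Of 41 tested genes of the β-catenin complex and Wnt pathway, 3 were called higher and 8 lower. That is 26.8% called, beside 18.3% of all genes. With all 8 libraries these counts became 2 higher and 0 lower, and under the effective length correction 0 higher and 1 lower. MYC had 204 and 176 CPM with CWP232228, against 194 and 169 CPM with ICG-001, with a 95% interval of -0.12 to 0.26 on the log2 scale. Of 19 tested intestinal stem cell and colorectal cancer stem markers, 4 were called higher and 3 lower, 36.8% beside 18.3% of all genes. With all 8 libraries these became 0 higher and 1 lower, and under the effective length correction 1 higher and 2 lower. Of the set genes in this list, CD44, LGR5 and PROM1 had log2 differences of 0.077, 0.36 and 0.10. Their adjusted p in edgeR were 0.346, 0.0569 and 0.344, and none of these 3 was called. LGR5 was called higher in 3 of the 14 alternatives, with adjusted p from 0.0316 to 0.275.

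RNA-binding splicing regulators leaned upward: 15 of 50 SR protein, hnRNP and related genes were called higher and 2 lower. The 30% called higher is set beside 9.64% of all genes, and the median was 0.084. The count of 15 became 6 without CWP232228 replicate 2, 7 without ICG-001 replicate 1, and 5 both with all 8 libraries and under the effective length correction. HNRNPD, chosen after its value was seen, had 278 and 285 CPM with CWP232228, against 213 and 223 CPM with ICG-001, a log2 fold change of 0.37 (SE 0.052). Host genes of small nucleolar RNAs leaned downward, with 5 of 17 called lower and none higher (29.4% lower, beside 8.68% of all genes). The 5 were SNHG32, EPB41L4A-AS1, GAS5, ZFAS1 and SNHG29. EPB41L4A-AS1 is an antisense gene, and the libraries do not mark strand, so its reads cannot be told from those of its partner. The call on SNHG29 was lost in 3 of the 4 fits that left out a library, all but that without CWP232228 replicate 2, with adjusted p between 0.0832 and 0.147. The 5 became 2 both with all 8 libraries and under the effective length correction.

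Epithelial genes moved in both directions. Of 26 tested genes of enterocyte and intestinal differentiation, 6 were called higher and 7 lower. Of 23 keratins and barrier genes, 2 were called higher and 7 lower. Called in all were 50% and 39.1% of these lists, beside 18.3% of all genes. Chosen after their values were seen, CEACAM6, a GPI-anchored adhesion molecule, had 64.2 and 56.4 CPM with CWP232228, against 121 and 121 CPM with ICG-001 and 11.3 and 10.1 CPM with DMSO, and KLF4, a factor of epithelial differentiation, had 18.8 and 16.7 CPM with CWP232228, against 37.5 and 33.8 CPM with ICG-001 and 11.5 and 10.6 CPM with DMSO. Both were called lower with CWP232228 than with ICG-001, KLF4 by a log2 fold change of -1.01 (SE 0.085), and were above DMSO with either compound. CA2, a cytosolic carbonic anhydrase of the colonic surface that was also chosen after its value was seen, went the other way, with 28.6 and 27.2 CPM with CWP232228, against 15.7 and 16.1 CPM with ICG-001. Besides CLDN2, called claudin and tight junction genes were CLDN1 and CLDN7, both lower with CWP232228, of 20 tested (15%, beside 18.3% of all genes). The call on CLDN7 was lost without CWP232228 replicate 2 and without ICG-001 replicate 1, with adjusted p of 0.0887 and 0.131. Without CWP232228 replicate 1, without CWP232228 replicate 2 and without ICG-001 replicate 1, the differentiation genes called higher numbered 3 each time. With all 8 libraries they numbered 2, and those called lower 3.

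Axon guidance genes were a list drawn up with the difference of UNC5B known. With a median of -0.13, 45% were called lower, beside 8.68% of all genes. Those called lower numbered 10 of 22, and none was called higher. Besides UNC5B they included NRP1, a co-receptor for semaphorins and VEGF, with 33.2 and 31.9 CPM with CWP232228, against 56 and 53.8 CPM with ICG-001, and NTN4, a netrin, with 45.3 and 43 CPM with CWP232228, against 72 and 69 CPM with ICG-001. NRP1 and NTN4 were chosen after their values were seen. The call on NTN4 was lost under the effective length correction, with an edgeR adjusted p of 0.0854. The 10 became 6 without CWP232228 replicate 2 and 6 without ICG-001 replicate 1, 4 with all 8 libraries and 3 under the effective length correction. Interferon response genes were called higher in 9 of 40 and lower in 1, 25% called in all beside 18.3% of all genes. Cytokine receptor genes were called lower in 6 of 22, beside 8.68% of all genes, and higher in 2. With all 8 libraries these became 4 interferon genes higher and 3 cytokine receptor genes lower.

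The DMSO libraries give another level beside the 2 compounds, as a description with no test, since both compounds are set beside the same DMSO libraries and these lie further apart than replicates of the compounds. Over the 226 genes called with a log2 fold change of at least 1 in size, the mean level with CWP232228 lay between those of ICG-001 and DMSO for 138 (61.1%), against 57.8% of all 3018 called genes. Among the ATF4 genes called lower, CWP232228 lay between for 28 of 31, and among the cholesterol genes called higher for 16 of 18. Among the mitosis genes called higher it lay between for 26 of 55, and above DMSO for 29. ICG-001 stood below DMSO for 49 of those 55. Among the 18 repair genes called higher, CWP232228 stood above DMSO for 14.

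**Figure D4:**
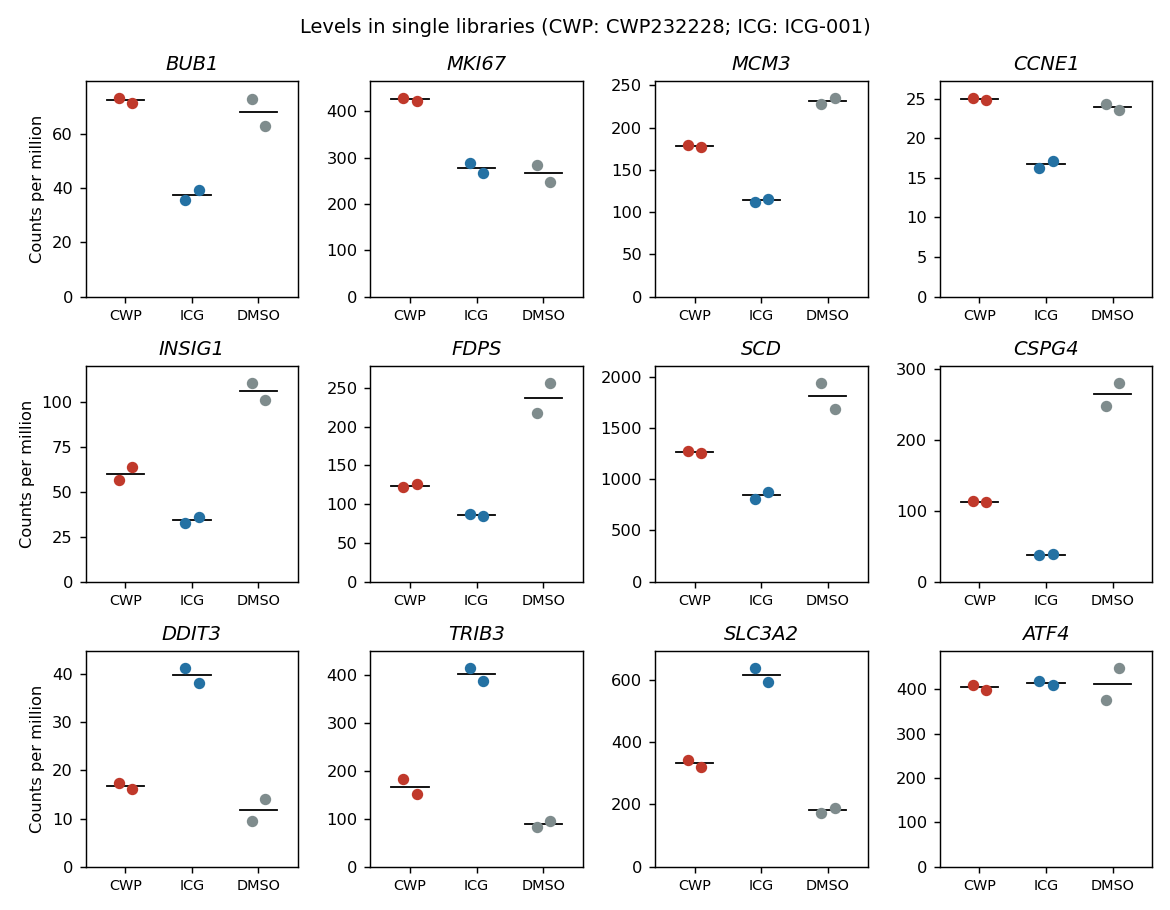
CPM of 12 named genes in single libraries, with CWP232228, ICG-001 and DMSO from left to right, linear axes from 0 and a black line at the mean of the 2 libraries. BUB1, MKI67 and CCNE1 with CWP232228 are at or above DMSO, INSIG1, FDPS, SCD and CSPG4 lie between ICG-001 and DMSO, DDIT3, TRIB3 and SLC3A2 lie above DMSO and below ICG-001, and ATF4 shows no called difference.

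Transcript shares within genes gave few calls. Of 11530 genes tested with edgeR's diffSpliceDGE, 211 (1.83%) had an adjusted p under 0.05, and 46 of these were also called for level. In 209 of the 211, the transcript with the smallest p was listed at exactly 0 in both libraries of 1 group. These calls may rest on Salmon's division of reads among similar transcripts, which was not tested. PRKAG1, a regulatory subunit of the kinase AMPK, had its transcript PRKAG1-206 at 42.4% and 34.4% of the gene's estimated reads with CWP232228, against 0% in both ICG-001 libraries, and at 0% and 21.9% with DMSO. EHMT1, a histone methyltransferase, had EHMT1-203 at 0% in both CWP232228 libraries, against 60.2% and 33.4% with ICG-001, and at 61.6% and 0% with DMSO. The DMSO replicates of EHMT1 and PRKAG1 thus also differed from each other, with the transcript at 0 in 1 of them. HSPA8, the constitutive HSP70 chaperone, and NBPF9, of a gene family with many near copies, were also among the genes named by rule. Of 48 splicing regulators with a usage test, 2 were called.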

How the data were processed

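RNA was measured in 8 HT29 libraries, made from total RNA (quality number of at least 8.0) with TruSeq RNA v2, which does not mark strand, and sequenced on an Illumina NextSeq 500, per the labels' protocols. Tools listed in the submitters' processing notes, without order, are fastp, Salmon 1.3.0 and DESeq2, with build GRCh38. Each deposited file gives, per the file headers, Salmon's estimated counts, TPM and effective length for every transcript. TPM entered no test, and the 12 columns of FPKM in the authors' tables were not used. The mean signal of normalized counts in the authors' deposited table served only to check the summed reads.

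Of 228754 transcripts, 204677 (89.5%) matched GENCODE 29, and 1.54% to 1.85% of a library's reads did not. Estimated counts were summed per gene and rounded. edgeR 4.0.16 (TMM scaling, filterByExpr, robust quasi-likelihood) was run in R 4.3.3 on the 6 libraries with a compound, with 3 residual degrees of freedom, contrast CWP232228 minus ICG-001, and Benjamini-Hochberg adjustment over 16471 genes. CPM use TMM factors, and SEs and 95% intervals come from the fit. Counting floors cover counting error only. Alternatives were other libraries, scalings and filters, length and GC offsets, a replicate block, DESeq2 1.42.0 and each library left out.

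The members and the 60 gene lists (1569 genes) were chosen with earlier results of these data known. The genes named were the 12 largest rises and falls among called genes with a mean log2 CPM of at least 2, an ordinary symbol, libraries that do not overlap and at least 50% of the authors' mean. Further genes were the 3 members of smallest p in each of the 10 lists with the largest median, 15 set genes and 5 for transcript usage. Of the genes named by this rule, 2 are not reported here. Any other gene is marked in the text as picked with its values in view, belongs to a small count named in full, or carries a printed promoter.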

Additional observations from a re-analysis of the deposited data

How the results depend on the processing

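The 3018 calls became 1121 with all 8 libraries, 843 with the effective length offset, 4816 with the GC and length offset, 4684 with the replicate block, and 4818 with the replicate block and that offset. The genes higher with CWP232228 then numbered 600 with all 8 libraries, 433 with effective length and 2405 with the block, and the genes lower 521 with all 8 libraries, 410 with effective length, 2443 with the GC and length offset, 2279 with the block and 2450 with the block and that offset. The 226 calls with a log2 fold change of at least 1 in size became 133 with all 8 libraries, 410 with no low-count filter, 89 with effective length and 82 in DESeq2. Leaving out 1 library gave 1317 to 2261 calls, 697 to 1114 higher, 620 to 1155 lower, 133 to 217 of at least 1 in size, and 142 to 288 for transcript usage. Calls of transcript usage became 320 with only the 4 libraries. The cause was not tested. RLE and upper quartile scaling moved the median log2 fold change of all genes to 0.0035 and 0.014.

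Of 55 named genes that were called, 42 kept their call and direction in all 14 alternatives, and none changed direction. Among named genes that were not called, EP300, at -0.037, turned to 0.43 with effective length and ran from -0.14 to 0.057 when 1 library was left out, turning without CWP232228 replicate 2 and, at 0.0043, without ICG-001 replicate 1. MYC ran from -0.045 to 0.17, turning without CWP232228 replicate 1 and, at -0.023, without ICG-001 replicate 2, and PROM1 turned to -0.15 with effective length.

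The replicate numbers were not taken as pairs, since no label says that a number marks a shared culture, and there are 2 numbers only. The deviations of same-numbered libraries correlated across genes at 0.23 for CWP232228 and ICG-001, 0.18 for CWP232228 and YB-0158 and 0.38 for ICG-001 and YB-0158. With the block, KHDRBS1, CREBBP and LGR5 were called, with adjusted p of 0.012, 0.00218 and 0.0375. Depth limits genes near the floors.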
